A study of Mus musculus with 9 samples.

Results

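Translation initiation and elongation factors, the proteins that load ribosomes onto messenger RNA and move them along it, were compared between SJL/J and C57BL/6J mice in liver, brain and kidney. The genes were chosen by symbol: every single gene symbol in the probe annotation that begins with Eif or Eef and a digit, which gave 57 of the 15096 named genes, on 66 probes. Of these, 49 had 1 probe and 8 had several, whose values were averaged, and 2 symbols were pseudogenes (Eif2s3x-ps1 and Eef1a1-ps1). RNA came from inbred male mice aged 8 weeks, and each of the 9 spotted arrays set a pool of SJL/J mice, in Alexa Fluor 647, against a pool of C57BL/6J mice, in Alexa Fluor 555. Each pool mixed whole-organ RNA of 5 animals, no treatment is given, and 3 arrays were made per tissue. Those 3 arrays were technical replicates of the same pair of pools with the dyes never exchanged, so SDs and p-values measure the spread between arrays and not between mice, and a dye effect of a probe is part of its strain ratio. Pooled tissue also cannot tell fewer cells of a type from less RNA per cell.

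Values are log2 ratios of SJL/J over C57BL/6J, so that a positive value means more RNA in SJL/J. The base and direction of the deposited ratios are not stated and were taken from limma's convention and the order of strains and dyes in the titles. Nnt, a gene partly deleted in C57BL/6J, was above 0 on 9 of 9 arrays, with means of 0.48 in liver (adjusted p = 0.078), 0.61 in brain (adjusted p = 0.0415) and 0.67 in kidney (adjusted p = 0.0198) by limma. A gene was called higher or lower where limma's adjusted p for the tissue mean against 0, over all named genes, was under 0.05. The files hold ratios without intensities, so levels could not be compared between genes, the tissues could not be checked against their markers, and dim spots could not be left out. The precision given here is therefore set by how many arrays were made. For the kidney and liver arrays the channel 1 tissue label reads brain, against kidney and liver in their titles, which were followed.

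Initiation begins when eIF2, carrying GTP and the initiator tRNA, joins the small ribosomal subunit with eIF1, eIF1A, eIF3 and eIF5. The cap-binding eIF4 proteins bring the messenger RNA, and eIF2B recharges eIF2 with GTP for another round. Kinases that phosphorylate the alpha subunit of eIF2 turn eIF2 into an inhibitor of eIF2B, which lowers bulk protein synthesis under stress. In elongation, eEF1A delivers each aminoacyl-tRNA, the eEF1B proteins recharge eEF1A, and eEF2 moves the ribosome to the next codon. The liver is among the tissues with the heaviest load of secreted protein to make.

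Messenger RNAs of elongation factors and of some initiation factors are known for a tract of pyrimidines at their start, through which mTOR controls their translation. Sequences around the start site were therefore read for the factors, from RefSeq on GRCm38.p6, over 25 bases before and 25 bases from the annotated start on. The motif was a run of at least 7 bases, each C or T, that opens with a C, searched on the sense strand only with overlapping runs counted as 1. It was found in 14 of the 43 factors whose promoter entry was read (32.6%), against 6123 of the 27025 genes read (22.7%). Entries on 1 chromosome and entries of another length than the rest were left out before this count. Shown here in sense direction are the longest run among the factors (Eif3f), 2 homologues on the sex chromosomes (Eif2s3x and Eif2s3y), the elongation factors Eef1a1 and Eef2, and Eif2s2, whose liver ratio is described first and which has no such run. Capitals mark the run. The windows lie at chr7:108934390-108934439 on the plus strand for Eif3f, chrX:94212627-94212676 on the minus strand for Eif2s3x, chrY:1010570-1010619 on the plus strand for Eif2s3y, chr9:78481700-78481749 on the minus strand for Eef1a1, chr10:81176606-81176655 on the plus strand for Eef2, and chr2:154892882-154892931 on the minus strand for Eif2s2.
Eif3f: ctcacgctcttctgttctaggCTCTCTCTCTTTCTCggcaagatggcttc
Eif2s3x: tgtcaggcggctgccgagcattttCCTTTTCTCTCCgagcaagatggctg
Eif2s3y: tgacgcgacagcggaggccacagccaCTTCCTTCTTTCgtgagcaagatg
Eef1a1: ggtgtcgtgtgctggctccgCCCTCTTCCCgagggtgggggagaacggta
Eef2: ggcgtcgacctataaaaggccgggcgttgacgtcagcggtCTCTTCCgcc
Eif2s2: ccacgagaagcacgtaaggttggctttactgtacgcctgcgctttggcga
The run is 15 bases long in Eif3f, 12 in both Eif2s3x and Eif2s3y, 10 in Eef1a1 and 7 in Eef2. Counted from the annotated start, it opens at -5 in Eef1a1, -4 in Eif3f, -1 in Eif2s3x, 2 in Eif2s3y and 16 in Eef2. In Eef1akmt2 it opens at -13 and in Eif3m at -20, so that it lies before the annotated start. The 14 factors with a run are therefore not a count of messages with such a tract at their start. The median strain ratio of the 14 factors with a run was -0.32 in liver, -0.11 in brain and 0.07 in kidney. Over the 29 factors without one it was -0.12 in liver, 0.01 in brain and 0.09 in kidney, and no test was made of this description.

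In liver, 15 of the 57 factors were lower in SJL/J and 2 were higher. That is 26.3% lower, beside 14.4% of all named genes, and 3.51% higher, beside 10.1% of all named genes, of which 24.5% passed in either direction. The median over the factors was -0.18, beside -0.02 over all genes, and 42 of the 57 lay below 0, beside 52.5% of all genes. The median of the factors was -0.26, -0.17 and -0.15 on the 3 liver arrays, so each array was below 0. With 1 liver array left out, 8 factors were lower each time, and the calls in either direction numbered 10 without replicate 1, 10 without replicate 2 and 8 without replicate 3. Shares of all genes are not given here for fits with an array left out, so those counts are not set beside all genes. Eef2k, Eif3i, Eif3m, Eif4a2 and Eif4a3 lost their calls whichever array was left out. Eef1e1, Eif2s3y and Eif3k lost them without replicate 1, Eif2s3y, Eif4ebp1 and Eif4g2 without replicate 2, and Eef1akmt2, Eef1e1, Eif2b1 and Eif3l without replicate 3. With the medians of spot lines and positions on the array removed, 14 were lower and 1 higher, beside 11.5% and 8.99% of all genes so treated. Then 10 of the 17 calls were kept, and the median of the factors was -0.08, beside -0.01 over all genes.

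**Figure D1:**
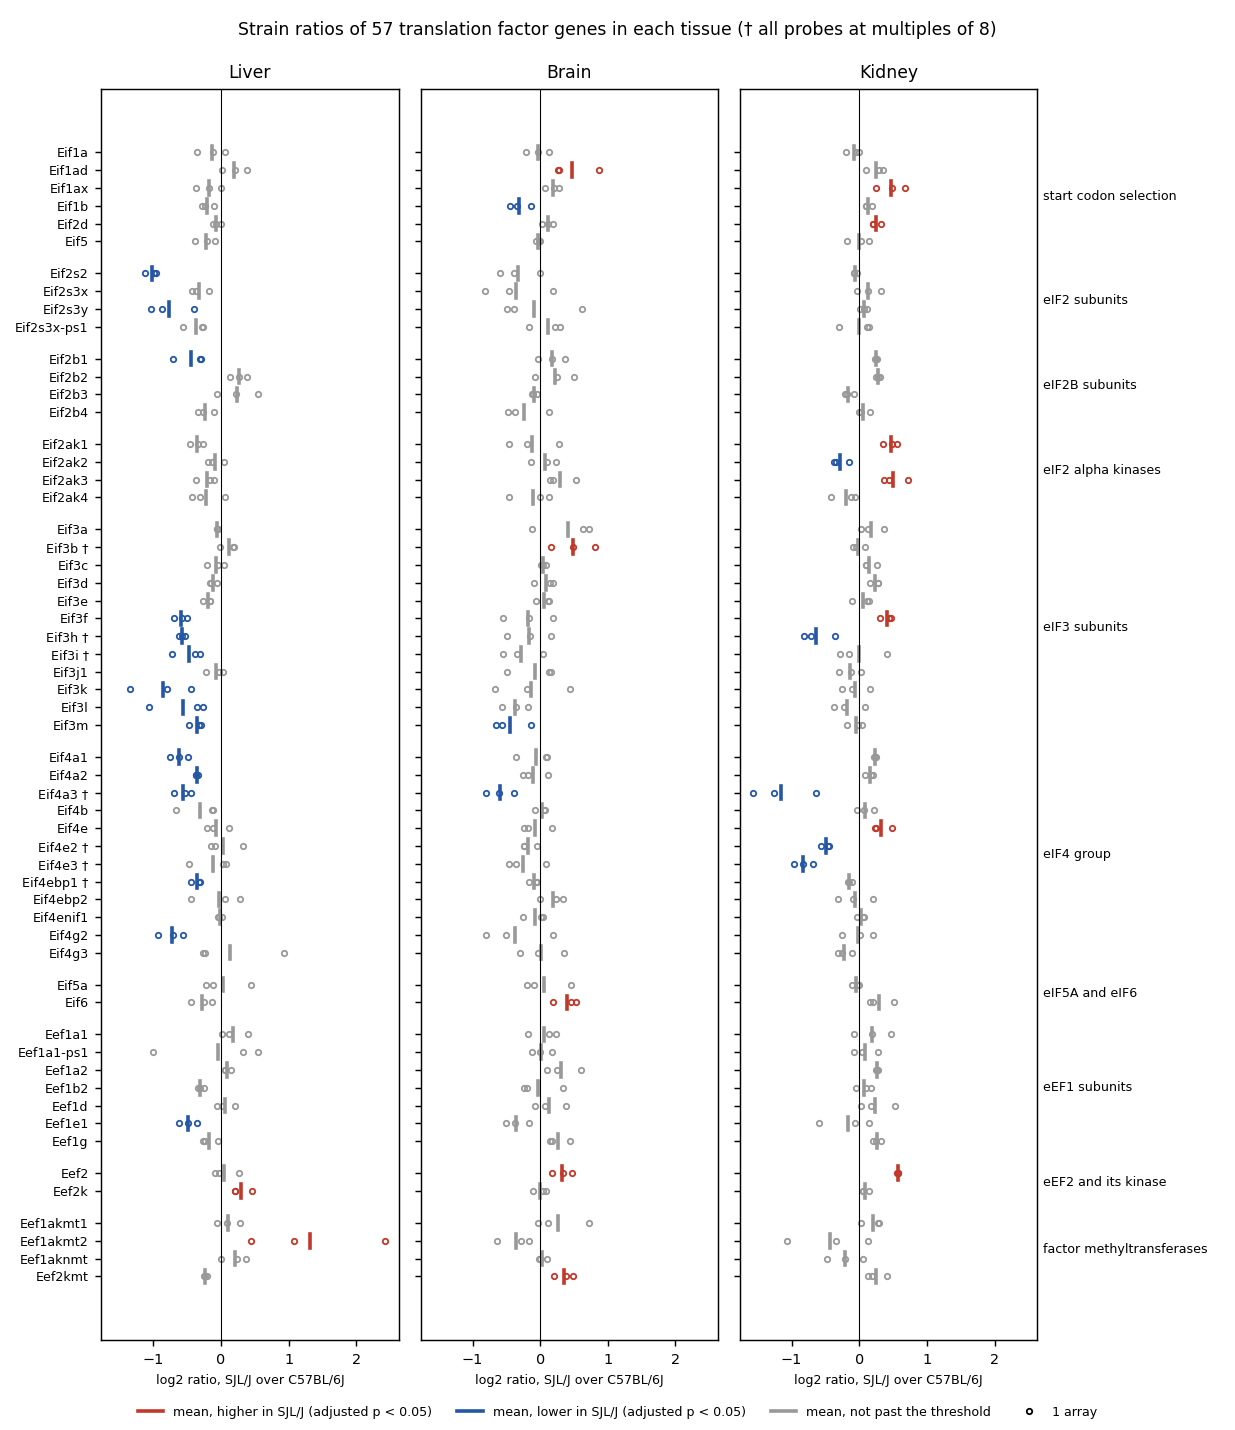
Log2 ratio of SJL/J over C57BL/6J for the 57 factors, with 1 circle per array in liver, brain and kidney (3 arrays each) and a bar at the tissue mean, red where higher and blue where lower at an adjusted p under 0.05 by limma. Eif2s2 lies between -1.12 and -0.95 on the 3 liver arrays and between -0.08 and -0.04 on the 3 kidney arrays.

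With probes averaged per gene, the lowest liver ratio among the factors was that of an eIF2 subunit, close to the value of Eif4a2 on 1 of its probes (-1.03). Eif2s2, the beta subunit of eIF2, measured -1.12, -0.99 and -0.95 on the 3 liver arrays. Its mean of -1.02 ± 0.09 (SD, n = 3 arrays; adjusted p = 7.87e-05 by limma) puts SJL/J at 0.493 times the C57BL/6J level. The gamma subunit has a copy on each sex chromosome. The Y copy, Eif2s3y, measured -0.88, -1.03 and -0.40 in liver (mean -0.77, adjusted p = 0.0124 by limma). The X copy, Eif2s3x, measured -0.43, -0.37 and -0.18 there and did not pass (mean -0.33, adjusted p = 0.154 by limma). These copies are close in sequence, and signal of one at the probe of the other was not tested. All 4 genes of the eIF2 group, the pseudogene Eif2s3x-ps1 included, had a negative liver mean, and 2 of them passed. The alpha subunit gene Eif2s1 was not analysed here.

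The exchange factor eIF2B had 1 of 4 measured subunits called. Eif2b1, its alpha subunit, measured -0.30, -0.32 and -0.71 in liver (mean -0.44 ± 0.23, adjusted p = 0.0116 by limma). The other subunits had liver means of 0.26 for Eif2b2, 0.24 for Eif2b3 and -0.24 for Eif2b4, and none passed. The subunits of this complex thus did not lie on one side of 0.

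The largest complex on the list, eIF3, which scaffolds the small subunit for mRNA recruitment, had 6 of 12 subunits lower in SJL/J liver and none higher, with 11 of 12 below 0. Eif3f, one of the subunits with an MPN domain, measured -0.58, -0.69 and -0.51 (mean -0.59 ± 0.09, adjusted p = 0.00502 by limma). Eif3k measured -1.34, -0.45 and -0.80 (mean -0.86 ± 0.45, adjusted p = 0.00908 by limma). The spot line of the Eif3k probe had itself a median of -0.70 in liver, and with medians of lines and positions removed Eif3k stood at -0.22 (adjusted p = 0.231 by limma). Eif3h, a partner of Eif3f in the same module, measured -0.62, -0.53 and -0.58 (mean -0.58, adjusted p = 0.00649 by limma). Eif3l measured -0.27, -0.36 and -1.06, so that 1 array carries much of its mean of -0.56 (adjusted p = 0.0191 by limma). Eif3m averaged -0.36 ± 0.10 (adjusted p = 0.0314 by limma) and Eif3i -0.48 ± 0.22 (adjusted p = 0.0368 by limma). After removal of line and position medians, Eif3l (-0.45), Eif3m (-0.27) and Eif3i (-0.29) also did not pass, whereas Eif3f (-0.65) and Eif3h (-0.46) did. Eif3a, the core subunit, had liver values of -0.06, -0.05 and -0.06 and did not pass, and neither did Eif3b, Eif3c, Eif3d, Eif3e and Eif3j1, whose means ran between -0.20 and 0.12.

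Of the eIF4 group, which binds the cap and unwinds the leader of the message, 5 of 12 were lower in SJL/J liver and none higher. Eif4a1, the main RNA helicase of cap-dependent initiation, measured -0.62, -0.76 and -0.48 (mean -0.62 ± 0.14, adjusted p = 0.00174 by limma). Its paralogue Eif4a2 averaged -0.36 ± 0.02 over probes that went in opposite directions, described further on. Eif4a3, a helicase of the same family that belongs to the exon junction complex, averaged -0.56 ± 0.12 (adjusted p = 0.0199 by limma). Eif4g2, a relative of the eIF4G scaffold that lacks the cap-binding protein's docking site, measured -0.70, -0.93 and -0.56 (mean -0.73 ± 0.18, adjusted p = 0.00806 by limma). Eif4ebp1, the inhibitor that holds eIF4E away from its scaffold until mTOR phosphorylates it, measured -0.31, -0.44 and -0.33 (mean -0.36, adjusted p = 0.00792 by limma). After removal of line and position medians, Eif4ebp1 stood at -0.12 (adjusted p = 0.366 by limma) and Eif4a3 at -0.33 (adjusted p = 0.108 by limma). The cap-binding protein gene Eif4e itself measured -0.11, -0.21 and 0.11 in liver and did not pass, and Eif4ebp2 averaged -0.03 ± 0.37. The gene of the main scaffold, Eif4g1, was not analysed here.

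With probes averaged per gene, the eEF1 group had a median liver ratio of -0.04, beside -0.18 over all 57 factors. Among the 7 genes of the eEF1 group, 1 was lower in SJL/J liver: Eef1e1, a small protein of the multi-synthetase complex, averaged -0.49 ± 0.13 (adjusted p = 0.0199 by limma). Eef1b2 averaged -0.30 over probes at -0.06 and -0.54, and neither the gene nor a probe passed. Eef1a1, which delivers aminoacyl-tRNA in most cells, measured 0.02, 0.40 and 0.12 in liver, and its muscle and neuron paralogue Eef1a2 measured 0.06, 0.15 and 0.06. Eef2 measured 0.26, -0.08 and -0.02 in liver and did not pass, as an average over probes with liver means of 0.55, -0.05 and -0.35. Whether the elongation factors differ from the initiation factors was not tested.

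Both upward calls in liver were enzymes that modify elongation factors. Eef2k, the kinase that phosphorylates and inactivates eEF2, measured 0.46, 0.20 and 0.20 (mean 0.29 ± 0.15, adjusted p = 0.0355 by limma). Eef1akmt2, a lysine methyltransferase of eEF1A, measured 1.07, 0.45 and 2.43 (mean 1.32 ± 1.01, adjusted p = 0.00954 by limma). All 3 arrays were above 0 but far apart, and neither enzyme passed without liver replicate 3. Eef2k also did not pass with medians of lines and positions removed (0.27). The other methyltransferases, Eef1akmt1, Eef1aknmt and Eef2kmt, did not pass in liver. Eif5a, which helps ribosomes past difficult peptide bonds, had liver values of -0.11, 0.44 and -0.23, and Eif6, which keeps the ribosomal subunits apart, averaged -0.27 ± 0.15. Neither passed.

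Of the 15 factors lower in liver, 4 (Eif3h, Eif3i, Eif4a3 and Eif4ebp1) rest on a single probe whose number on the array is a multiple of 8. Probes at those numbers were lower in SJL/J more often in every tissue. In kidney 48.9% of the 2174 such probes of other named genes were lower, beside 8.8% of the 14634 at other numbers. In liver the shares were 32.3% and 11.3%, and in brain 26% and 7.28%. Among the factors in kidney, 5 of 8 such probes were lower, beside 1 of the other 58. The part of the probe number in these calls was not tested, and the counts of called factors are also given without those probes. In liver, 11 of the 50 factors left were lower and 2 higher, beside 11.9% and 10.5% of all genes so treated.

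In brain, 3 of the 57 factors were lower in SJL/J and 5 higher, 5.26% and 8.77%, beside 9.61% and 7.55% of all named genes (17.2% in either direction). The median of the factors was -0.03, beside 0.01 over all genes. Brain replicate 3 stood apart. Over named genes it correlated at 0.36 and 0.42 with the other brain arrays and at 0.46 to 0.52 with the kidney arrays. The other brain arrays correlated at 0.73 with each other. The kidney arrays correlated among themselves at 0.78 and the liver arrays at 0.74 to 0.77. These correlations are descriptions over genes that share pools, probes and dyes.

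With all 3 brain arrays the factors higher in SJL/J were Eif3b, Eif1ad, Eif6, Eef2kmt and Eef2. Eif3b, a core eIF3 subunit, measured 0.48, 0.82 and 0.16 (mean 0.49 ± 0.33, adjusted p = 0.0162 by limma), on a single probe at a multiple of 8. Eif1ad, a relative of eIF1A, measured 0.27, 0.28 and 0.87 (mean 0.47, adjusted p = 0.0274 by limma). Eef2, on 3 probes, measured 0.18, 0.46 and 0.33 (mean 0.33 ± 0.14, adjusted p = 0.038 by limma), and Eef2kmt, a methyltransferase of eEF2, averaged 0.36 ± 0.14 (adjusted p = 0.0228 by limma). Eef2 and Eef2kmt, a substrate and its enzyme, are a pair set together after the values were seen. The probes of Eef2 averaged 0.44, 0.19 and 0.34 in brain, and none passed on its own. Eef2 lost its call whichever brain array was left out, and Eef2kmt without replicate 2 or 3. Eif6 averaged 0.39 ± 0.19 (adjusted p = 0.0294 by limma).

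The lower factors in brain were Eif4a3, Eif3m and Eif1b. Eif3m measured -0.56, -0.65 and -0.14 (mean -0.45 ± 0.27, adjusted p = 0.0168 by limma) and was also lower in liver. Eif1b, a paralogue of the start-codon factor eIF1, averaged -0.31 ± 0.16 (adjusted p = 0.0371 by limma). Eif4a3, on its 1 probe at a multiple of 8, averaged -0.60 ± 0.21 (adjusted p = 0.0208 by limma) and was lower in all 3 tissues. Once line and position medians were removed, Eif3b, Eif1ad and Eif1b passed in brain, and Eef2kmt (0.11), Eef2 (0.22), Eif6 (0.28), Eif4a3 (-0.32) and Eif3m (-0.37) did not.

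The brain calls depended on which arrays were used. Without brain replicate 1, 4 factors were higher and 1 lower, without replicate 2 none passed, and with the brain arrays fitted alone none passed. At an unadjusted p under 0.05, 17 of 57 factors passed with all arrays, beside 32.7% of all genes. Without brain replicate 3, 2 factors were higher and 8 lower, and only Eif3b, Eif3m and Eif4a3 were shared with the calls on all arrays. Calls in the other tissues also rose in that fit, to 22 in liver (17 reported) and 17 in kidney (12 reported). Shares of all genes are not given here for these fits, so their counts are not set beside all genes. Without brain replicate 3, Eif3a stood at 0.68 (adjusted p = 0.00175 by limma) beside Eif3b at 0.65 (adjusted p = 0.00316 by limma). The lower ones included members of the eIF2 group, with Eif2s3x at -0.64 (adjusted p = 0.00581 by limma), Eif2s2 at -0.49 (adjusted p = 0.00673 by limma) and Eif2s3y at -0.44 (adjusted p = 0.0445 by limma). Eif4g2 (-0.65), Eif2b4 (-0.43) and Eif3f (-0.35) also passed in that direction. Eif2s3y shows the gap between arrays, at -0.50 and -0.39 on brain replicates 1 and 2 and 0.62 on replicate 3. On all 3 brain arrays without the probes at multiples of 8, 2 of 50 factors were lower and 4 higher, beside 6.62% and 7.73% of all genes so treated.

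In kidney, 7 of the 57 factors were higher in SJL/J and 5 lower, 12.3% and 8.77%, beside 13.5% and 13.9% of all named genes (27.4% in either direction). These shares were close to or below those of all genes. The median of the factors was 0.06, beside 0.03 over all genes, and the array medians were 0.09, 0.09 and 0.06. Without probes at multiples of 8, 6 of 50 factors were higher and none lower, beside 14.1% and 8.05% of all genes so treated, and 20 of the 57 factors passed an unadjusted p under 0.05 in the full set, beside 39.8% of all genes. With medians of lines and positions removed, 2 were higher and 3 lower, beside 9.54% and 10.2% of all genes so treated. Leaving out a kidney array gave 5 calls without replicate 1, 7 without replicate 2 and 6 without replicate 3, without shares of all genes beside them. Eif2ak1, Eif2ak2, Eif2d, Eif3f and Eif4e lost their calls whichever array was left out, Eif1ax without replicate 1 or 3, and Eif2ak3 without replicate 1.

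With probes averaged per gene, Eef2, the translocase, had the highest kidney ratio of the factors, below the 0.68 of Eef1b2 on 1 of its probes. It measured 0.58, 0.56 and 0.57 on the 3 arrays (mean 0.57 ± 0.01, adjusted p = 0.0016 by limma), which puts SJL/J at 1.48 times the C57BL/6J level. That is an average over probes with kidney means of 0.03, 0.53 and 1.15, described further on. The SDs of those probes over arrays were 0.14, 0.14 and 0.25, so the SD of 0.01 does not describe a single probe. The eEF2 kinase gene Eef2k measured 0.05, 0.15 and 0.06 in kidney and did not pass.

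Of the eIF2 alpha kinases, 2 of 4 were higher in SJL/J kidney and 1 was lower. Eif2ak3, known as PERK, which senses unfolded protein in the endoplasmic reticulum, measured 0.71, 0.43 and 0.36 (mean 0.50 ± 0.19, adjusted p = 0.00648 by limma). Its mean was 0.19 after removal of line and position medians (adjusted p = 0.168 by limma). Eif2ak1, the haem-regulated kinase, measured 0.55, 0.36 and 0.48 (mean 0.46 ± 0.10, adjusted p = 0.0184 by limma). Eif2ak2, or PKR, the kinase activated by double-stranded RNA, measured -0.35, -0.15 and -0.38 (mean -0.29, adjusted p = 0.0479 by limma), and -0.20 on average with those medians removed (adjusted p = 0.14 by limma). Eif2ak4, or GCN2, the sensor of uncharged tRNA, measured -0.41, -0.07 and -0.12 and did not pass. The kinases thus had calls in both directions in kidney, and in liver all 4 had negative means of which none passed.

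Among the start-codon factors, Eif1ax, which encodes eIF1A and helps the small subunit scan, measured 0.48, 0.25 and 0.68 in kidney (mean 0.47 ± 0.22, adjusted p = 0.00858 by limma). Its close relative Eif1a averaged -0.08 ± 0.11, and a shared signal between these probes was not tested. Eif2d, which can deliver initiator tRNA without eIF2, averaged 0.24 ± 0.07 (adjusted p = 0.0495 by limma). Eif3f was higher in kidney, at 0.46, 0.31 and 0.44 (mean 0.40 ± 0.08, adjusted p = 0.0304 by limma), against its lower value in liver. Eif4e measured 0.49, 0.22 and 0.25 in kidney (mean 0.32 ± 0.15, adjusted p = 0.049 by limma), close to the threshold. None of these 4 passed once line and position medians were removed, and the means then were 0.21 for Eif1ax, 0.02 for Eif2d, 0.16 for Eif3f and 0.25 for Eif4e.

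The lower calls in kidney were Eif4a3, Eif4e3, Eif3h, Eif4e2 and Eif2ak2, and the first 4 of these rest on single probes at multiples of 8. Eif4a3 measured -1.57, -1.27 and -0.65 (mean -1.16 ± 0.47, adjusted p = 0.000325 by limma), the lowest kidney mean of the factors. Eif4e3, a cap-binding relative of eIF4E, measured -0.97, -0.83 and -0.68 (mean -0.83, adjusted p = 0.00123 by limma). Eif4e2, another relative that represses translation, measured -0.45, -0.56 and -0.47 (mean -0.49, adjusted p = 0.00563 by limma). Eif3h averaged -0.64 ± 0.24 (adjusted p = 0.00376 by limma). With medians of lines and positions removed, Eif4a3 (-0.67) and Eif4e3 (-0.46) passed, and Eif4e2 (-0.16) and Eif3h (-0.38) did not. The 3 cap-binding genes thus had opposite calls, Eif4e higher and both relatives lower, with the relatives on probes of the kind described above.

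The strain ratio itself was compared between tissues by contrasts of the same fit, which reuse the tissue values already given. Between liver and kidney, 13 of the 57 factors had a lower ratio in liver and 3 a higher one, 22.8% and 5.26%, beside 11% and 8.52% of all named genes (19.5% in either direction). The median difference was -0.24 over the factors, beside -0.03 over all genes. Leaving out 1 array gave 7 calls without kidney replicate 1, 11 without liver replicate 2, and 10 without each of the other 4 arrays. With medians of lines and positions removed, 9 were lower and 1 higher. Shares of all genes are not given here for these fits, so their counts are not set beside all genes. Without probes at multiples of 8, 13 of 50 factors were lower and 1 higher, beside 11.7% and 6.01% of all genes so treated.

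Eif3f, with negative values on the 3 liver arrays and positive values on the 3 kidney arrays, differed by -0.99 (SE 0.17, adjusted p = 0.00316 by limma). Eif2s2 differed by -0.95 (SE 0.15, adjusted p = 0.00228 by limma) and Eif4a1 by -0.85 (SE 0.15, adjusted p = 0.00339 by limma). Eif2ak1 measured -0.26, -0.33 and -0.45 in liver, opposite in sign to kidney, and differed by -0.81 (SE 0.18, adjusted p = 0.00989 by limma). Eif2b1 measured 0.25, 0.23 and 0.26 in kidney, where it did not pass, and differed by -0.68 (SE 0.15, adjusted p = 0.0109 by limma). These 5 differences passed under each of the 12 alternatives tried for them. Eef2 differed by -0.52 (SE 0.13, adjusted p = 0.0225 by limma), and by -0.25 with medians of lines and positions removed, which did not pass (adjusted p = 0.238 by limma). Higher in liver than in kidney were Eef1akmt2, by 1.75 (SE 0.43, adjusted p = 0.0179 by limma), Eif4e3 and Eif4e2, the last pair on probes at multiples of 8.

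**Figure D2:**
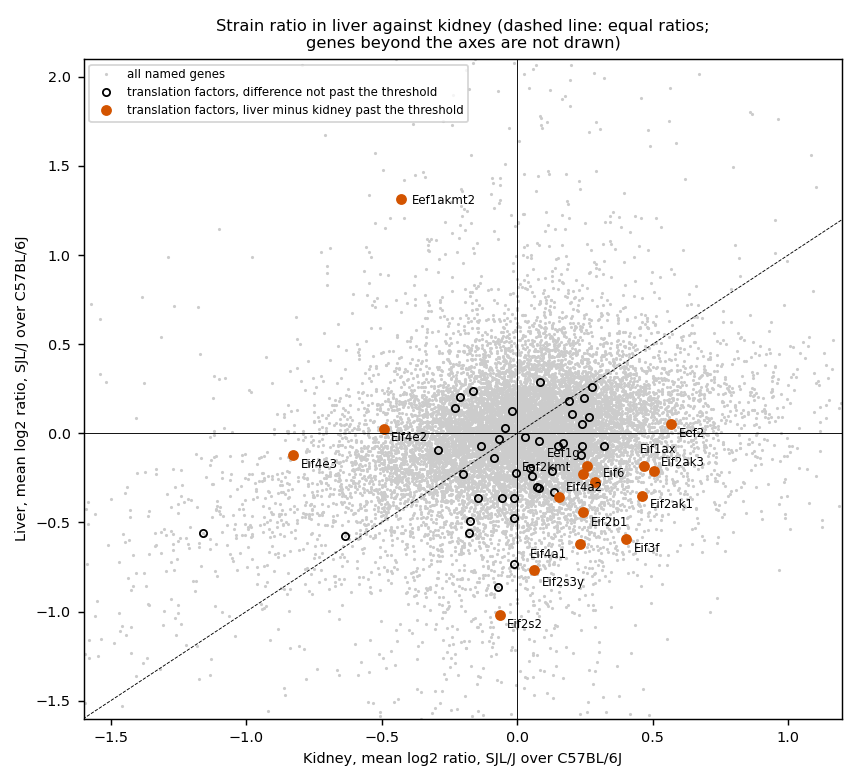
Mean log2 ratio of SJL/J over C57BL/6J in liver against the mean in kidney (3 arrays each) for the 57 factors, with factors whose liver and kidney ratios differ at an adjusted p under 0.05 by limma marked and named. Of the marked factors, 13 have a lower ratio in liver, Eif3f at -0.59 in liver and 0.40 in kidney among them, and 3 a higher one.

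Between liver and brain, 5 factors had a lower ratio in liver and 1 a higher one, beside 6% and 5.61% of all named genes (11.6% in either direction). Those lower in liver were Eif2s2 (-0.69), Eif6 (-0.67), Eif2b1 (-0.61), Eef2kmt (-0.59) and Eif4a1 (-0.56). Eef1akmt2 was higher by 1.67. Without probes at multiples of 8 the counts were again 5 and 1, of 50, beside 6.33% and 5.12% of all genes so treated. Without brain replicate 2 the calls numbered 2, and without liver replicate 1 only 1. Between brain and kidney none of the 57 factors passed by limma, beside 2.97% of all named genes lower and 2.5% higher in brain (5.47% in either direction), and 11 passed an unadjusted p under 0.05, beside 24.7% of all genes. Without brain replicate 3, 8 factors were lower in brain than in kidney and 3 higher, with Eif2ak1 at -0.79 (adjusted p = 0.0062 by limma). Without kidney replicate 3, 1 passed. Shares of all genes are not given here for fits with an array left out, so these counts are not set beside all genes.

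Several factors had more than 1 probe, and these did not always give the same answer. Eif4a2 had 1 probe at -1.10, -0.81 and -1.16 in liver (mean -1.03, adjusted p = 0.00166 by limma) and another at 0.44, 0.08 and 0.42 (mean 0.31, adjusted p = 0.039 by limma). Eef1b2, which recharges eEF1A with GTP, had 1 probe at -0.55, -0.48 and -0.56 in kidney (mean -0.53, adjusted p = 0.00198 by limma), at a multiple of 8, and another at 0.73, 0.39 and 0.90 (mean 0.68, adjusted p = 0.0231 by limma). In both genes 1 probe passed upward and the other downward, so the averages of -0.36 for Eif4a2 in liver and 0.07 for Eef1b2 in kidney describe neither probe.

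One probe of each pair, the higher one for Eif4a2 and the lower one for Eef1b2, is annotated with an accession from a run of 30 annotated probes of which 7 are named for small RNAs. The only probe of Eif5, which did not pass in any tissue, carries an accession of the same run. In the reference gene table small nucleolar RNA genes lie inside Eif4a2 (5, Snord2 and Snora81 among them), Eef1b2 (2, one of them Snora41) and Eif5 (1, Snora28). Whether these probes measure the host gene or the small RNA was not settled. Without them Eef1b2 stood at 0.68 in kidney (adjusted p = 0.0193 by limma), and Eif4a2 at -1.03 in liver (adjusted p = 0.00105 by limma) and -1.20 for liver minus kidney (adjusted p = 0.00528 by limma). Then 56 factors were left, with 15 lower and 2 higher in liver, 3 lower and 5 higher in brain, 5 lower and 8 higher in kidney, and 14 lower and 3 higher for liver minus kidney.

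The 3 probes of Eef2 had kidney means of 0.03, 0.53 (adjusted p = 0.0048 by limma) and 1.15 (adjusted p = 0.000973 by limma). In liver the same probes averaged 0.55 (adjusted p = 0.0372 by limma), -0.05 and -0.35. The probe that was highest in kidney was the lowest in liver, a spread that the averaged Eef2 values do not show. Of 2 probes of Eef1a2, 1 passed in kidney (0.55, adjusted p = 0.0194 by limma) beside another at -0.02. Eef1d, the delta subunit of the exchange complex, had kidney means of 0.55 (adjusted p = 0.0431 by limma) and -0.07 on its probes.

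**Figure D3:**
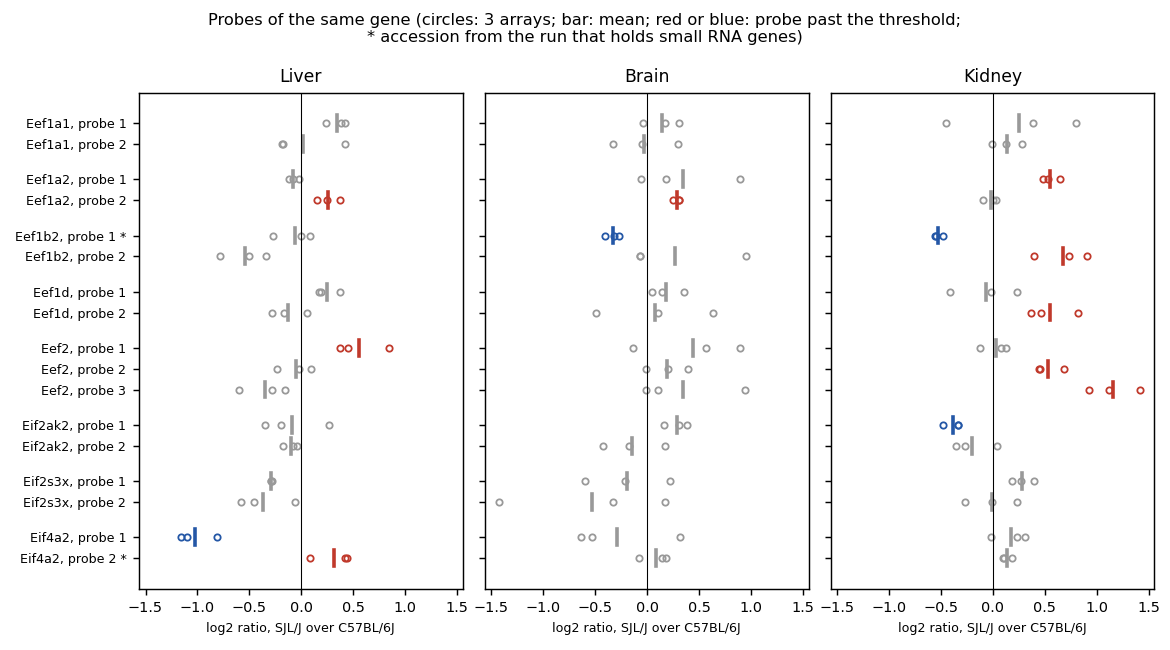
Log2 ratio of SJL/J over C57BL/6J for single probes of factors with several probes, with 1 point per array and a bar at the mean in liver, brain and kidney (3 arrays each). The probes of Eif4a2 lie on opposite sides of 0 in liver and those of Eef1b2 on opposite sides of 0 in kidney.

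Other genes of protein synthesis were taken from lists of related functions. Their counts are to be read beside the shares of all named genes, 14.4% lower and 10.1% higher in liver, 9.61% and 7.55% in brain, and 13.9% and 13.5% in kidney. Of 7 release and recycling factors, 2 were lower in SJL/J liver and none higher. Etf1, which recognises stop codons, measured -2.12, -1.61 and -1.91 in liver (mean -1.88 ± 0.25, adjusted p = 3.62e-07 by limma), farther from 0 than any initiation or elongation factor there. Its partner Gspt1 averaged -0.54 ± 0.18 in liver (adjusted p = 0.00738 by limma). In kidney Etf1 averaged -0.38 ± 0.03 (adjusted p = 0.0185 by limma) and was the only call, and brain had none of 7.

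Of 17 other initiation and hypusine proteins, 7 were lower and 1 higher in SJL/J liver (41.2% and 5.88%), with a median of -0.27. Leaving out probes at multiples of 8, 5 of 14 were lower and 1 higher there, 2 lower and 1 higher in brain, and none called in kidney. Denr, which with Mcts1 recycles ribosomes, averaged -0.61 ± 0.20 (adjusted p = 0.0065 by limma), whereas Mcts1 averaged 0.57 ± 0.09 (adjusted p = 0.0278 by limma), a pair chosen after its values were seen. Habp4, an RNA-binding protein found on ribosomes, measured -0.35, -1.77 and -0.96. Paip2b, an inhibitor of poly(A)-binding protein, averaged -1.01 in liver, -0.76 in brain and -1.47 in kidney, on 1 probe at a multiple of 8. Brain had 3 lower and 1 higher of the 17, among them Mcts2 at -0.95 and Paip1 at 0.64, and in kidney Paip2b was the only call.

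Of 16 genes that signal to translation, 3 were lower and 1 higher in liver, 2 were lower and none higher in brain, and 3 were lower and 3 higher in kidney. Leaving out probes at multiples of 8, 2 of 14 were lower and 1 higher in liver, none was called in brain, and none was lower and 2 were higher in kidney. Larp1, which binds the pyrimidine tract of messages under mTOR control, measured -0.86, -0.89 and -0.97 in liver (mean -0.91 ± 0.06, adjusted p = 0.000608 by limma). Rps6kb2, an S6 kinase, averaged 0.84 ± 0.28 there (adjusted p = 0.00943 by limma). Mtor itself averaged 0.64 ± 0.25 in kidney (adjusted p = 0.00318 by limma). Mknk1, a kinase of eIF4E, was lower in all 3 tissues, at -0.34 in liver, -0.63 in brain and -0.78 in kidney, on 1 probe at a multiple of 8.

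The integrated stress response is the programme that follows phosphorylation of eIF2 alpha. Of 16 genes listed for it, 4 (25%) were higher in SJL/J kidney and none lower, beside 13.5% and 13.9% of all named genes. The list median was 0.12. The other 12 were not called in kidney, among them Ddit3 (0.16), Atf3 (0.08), Trib3 (0.07), Asns (0.05) and Phgdh (-0.05). Of the called genes, Atf4, the main transcription factor of this response and named after its values were seen, measured 0.89, 0.66 and 0.33 in kidney (mean 0.63 ± 0.28, adjusted p = 0.00606 by limma). Chac1, which degrades glutathione, measured 0.70, 0.61 and 0.79 (mean 0.70 ± 0.09, adjusted p = 0.000289 by limma). Ppp1r15a, which directs the phosphatase of eIF2 alpha, averaged 0.68 ± 0.33 (adjusted p = 0.00202 by limma), and Cebpb averaged 0.77 ± 0.35 (adjusted p = 0.00296 by limma). In liver 4 of the 16 were higher (25%) and 2 lower (12.5%), beside 10.1% and 14.4% of all named genes. Sesn2 stood at 0.50 and Ddit3 at -0.70 there. In brain 2 were higher (12.5%) and 1 lower (6.25%), beside 7.55% and 9.61% of all named genes.

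Of 19 cytosolic aminoacyl-tRNA synthetase genes, 4 were lower and 2 higher in liver, 21.1% and 10.5% (Nars at -0.56, Lars at 0.40), 2 were higher in brain, and 3 were higher in kidney (Wars at 0.63, Hars at 0.38, Sars at 0.32), with none lower in brain or kidney. Without probes at multiples of 8 no synthetase gene was called in brain. Of 7 mitochondrial translation factors, the only call was Gfm1, higher in kidney at 0.45 (adjusted p = 0.044 by limma), which did not pass without those probes in the fit. Calls among cell type markers are to be read beside all named genes. Of those, 24.5% were called in either direction in liver, 17.2% in brain and 27.4% in kidney. Of 12 hepatocyte markers, 8 were higher and 1 lower in SJL/J liver (median 0.60, from -1.69 to 1.14), beside 10.1% and 14.4% of all named genes. Of 11 macrophage markers, 1 was higher in liver, 2 were lower in brain, and 4 were higher and 1 lower in kidney. Of 10 proximal tubule markers, 2 were higher and 1 lower in kidney. Of 9 neuron markers, 2 were higher and 1 lower in brain. Without probes at multiples of 8, 1 of 8 neuron markers was higher and 1 lower there. Of 4 erythroid markers, 2 were higher and 1 lower in liver. The part of cell makeup in the ratios of the factors was not tested.

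**Figure D4:**
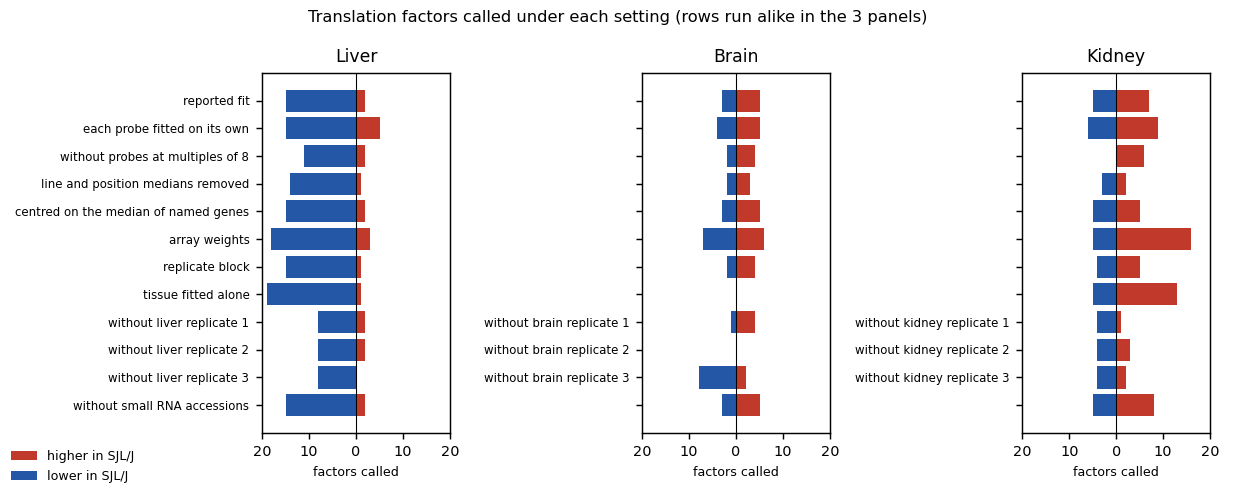
Number of the 57 factors called lower and higher in SJL/J in liver, brain and kidney, with the threshold of adjusted p under 0.05 by limma, for the reported fit and each alternative. Lower calls outnumber higher calls in liver in every setting, whereas brain ranges between 0 and 13 calls.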

How the data were processed

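The deposited table holds 1 log ratio per probe and array for 23040 probes, with 0 missing values. Per the submitters' processing notes the authors used R 2.0.0 and limma. How they corrected background or scaled each array is not stated in the labels. The unit was taken as log2, since the deposited values carry no stated base. Sorted values were identical on all 9 arrays (median 0.01, lowest -3.91, highest 5.09), so the arrays had been given equal distributions.

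The platform annotation names 16874 probes with 1 symbol and 134 with several, and 6032 are unnamed here. Probe IDs of 16196 matched the GRCm38.p6 gene table, which changed 0 symbols. Probes of a gene were averaged. The functions lmFit and eBayes of limma 3.58.1 (R 4.3.3) fitted 1 coefficient per tissue to the 9 arrays, with 6 residual degrees of freedom and a prior of 5.17 degrees of freedom (prior SD 0.20). Tissue means were tested against 0 and tissue differences by contrasts, two-sided, with Benjamini-Hochberg adjustment over 15096 genes. The fit was tested on simulated data with known answers.

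Genes named were factors past the threshold with 1 sign on 3 arrays (up to the 10 highest and 10 lowest per tissue), the 10 largest differences per tissue contrast, factors with opposed probes, a list by role, and up to 3 called genes per other list and tissue. The rest of the factors are named as members of their complex. The members and lists were chosen with earlier results of these data known. Alternatives were other probe handling, position medians, centring, array weights, a replicate block, single tissues and leaving out arrays.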

Additional observations from a re-analysis of the deposited data

Results flagged for a closer look

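The strain ratio of 16 factors differed between liver and kidney, and that of 6 between liver and brain, by limma contrasts with adjusted p under 0.05. Over all named genes, 19.5% passed between liver and kidney and 11.6% between liver and brain. Values are differences on the log2 scale, the ratio in liver minus that in the other tissue, with SE.

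The genes of eIF2 (the pseudogene Eif2s3x-ps1 included), eIF2B and the eIF2 alpha kinases number 12. These groups were joined only for this count and with their values known, so the count is a description and no support for a set. Of the 12 genes, 5 passed with a lower ratio in liver than kidney and none with a higher one, beside 11% and 8.52% of all named genes. By group that was 2 of 4, 1 of 4 and 2 of 4. Eif2b3 at 0.40 and Eif2ak2 at 0.20 did not pass. The 5 were Eif2s2 at -0.95 (SE 0.15), Eif2s3y at -0.83 (SE 0.27), Eif2b1 at -0.68 (SE 0.15), and the kinases Eif2ak1 at -0.81 (SE 0.18) and Eif2ak3 at -0.72 (SE 0.15). Eif1ax, which encodes eIF1A, differed by -0.65 (SE 0.15). Among the scaffold and helicase genes Eif3f differed by -0.99 (SE 0.17), Eif4a1 by -0.85 (SE 0.15) and Eif4a2 by -0.51 (SE 0.13), or by -1.20 without its probe of a small RNA accession. Among late factors Eif6 differed by -0.56 (SE 0.15), Eef2 by -0.52 (SE 0.13), Eef1g, a subunit of the eEF1B exchange complex, by -0.44 (SE 0.13), and Eef2kmt by -0.47 (SE 0.13). The ratio was higher in liver for Eef1akmt2 at 1.75 (SE 0.43), Eif4e3 at 0.70 (SE 0.19) and Eif4e2 at 0.52 (SE 0.15).

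Against brain, the ratio was lower in liver for Eif2s2 at -0.69 (SE 0.15), Eif6 at -0.67 (SE 0.15), Eif2b1 at -0.61 (SE 0.15), Eef2kmt at -0.59 (SE 0.13) and Eif4a1 at -0.56 (SE 0.15), and higher for Eef1akmt2 at 1.67 (SE 0.43). All 6 of these factors also differed between liver and kidney, and both contrasts share the liver arrays.

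With medians of lines and positions removed, 9 of these 22 differences did not pass. Against kidney these were Eif2s3y (-0.48), Eif2ak3 (-0.32), Eef1g (-0.31), Eif6 (-0.28), Eef2 (-0.25), Eif4e3 (0.43) and Eif4e2 (0.31), and against brain Eif6 (-0.51) and Eif4a1 (-0.43).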

How the results depend on the processing

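Counts of called factors moved by more than 1.5 times as follows. With medians of lines and positions removed, 5 passed in brain (8 reported), 5 in kidney (12 reported) and 10 for liver minus kidney (16 reported). In brain those were 3 higher and 2 lower, beside 5.96% and 8.72% of all genes so treated. Array weights gave 13 in brain, 21 in kidney, 25 for liver minus kidney and 10 for brain minus kidney (0 reported). Brain fitted alone gave 0. Without probes at multiples of 8, 6 passed in kidney, and each probe on its own gave 1 for brain minus kidney. Leaving out 1 array gave 8 to 10 calls in liver (17 reported), 0 to 10 in brain, 5 to 7 in kidney, 7 to 11 for liver minus kidney, 1 to 8 for liver minus brain (6 reported) and 0 to 11 for brain minus kidney. No shares of all genes are given for array weights, single tissues, single probes, the replicate block or leaving out arrays or small RNA accessions. None is given for liver minus kidney with line and position medians removed. Counts under those settings are therefore not set beside all genes. The causes of these shifts in counts were not tested.

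Of 59 calls of named factors, in a tissue or a contrast, 12 held under every alternative run and 47 were lost under at least 1. The 12 are Eif2s2, Eif3f, Eif3h and Eif4a1 in liver, Eef2, Eif4a3 and Eif4e3 in kidney, and Eif2ak1, Eif2b1, Eif2s2, Eif3f and Eif4a1 for liver minus kidney. Eif3h, Eif4a3 and Eif4e3 rest on 1 probe at a multiple of 8, so leaving out such probes could not be run for them. Fitting each probe on its own was not among these alternatives. The 3 probes of Eef2 had kidney means of 0.03, 0.53 and 1.15. None of the 59 changed sign. Eef1a1-ps1, not called in liver at -0.04, passed at 0.43 without liver replicate 1 and stood at -0.34 without replicate 2. The median of the factors ran from -0.22 to -0.08 in liver, -0.04 to 0.05 in brain and 0.04 to 0.11 in kidney.

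Arrays with the same replicate number did not deviate together: correlations of deviations from the tissue means lay between -0.08 and 0.05 over 9 pairs. The replicate block gave 16 calls in liver, 6 in brain, 9 in kidney, 14 for liver minus kidney, 6 for liver minus brain and 0 for brain minus kidney. Leaving out the probes with small RNA accessions was added after seeing the data. Spot signal over background was not analysed here.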
